A study of Mus musculus with 12 samples.

Results

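The genotype effect on the mouse kidney was measured as the difference between AT1A angiotensin receptor knockout mice (KO) and wild-type mice (WT), averaged over 2 treatment states, untreated (baseline) and infused with angiotensin II (ANG II). The members described here are the probe sets called in this averaged difference whose KO minus WT difference had the same sign in both states. They numbered 8217 of the 45037 probe sets tested, or 18.2%, with 3869 higher and 4348 lower in KO. Counted by 1 probe set per gene, they were 3590 of 18193 genes. Total RNA of whole kidneys was hybridised to Affymetrix Mouse Genome 430 2.0 arrays, 1 array per mouse. There were 12 mice, 3 in each of the groups WT baseline, KO baseline, WT ANG II and KO ANG II. All 4 groups held male mice of strain F1 (C57BL6 X 129/SvEv), 2.5 months old, on a diet labelled NS, and the ANG II groups had received 1 ug/kg/min for 2 days. The KO genotype is labelled AGTR1A-KO, and how it was made is not stated in the labels.

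The renin-angiotensin system acts through the peptide ANG II, which contracts vessels, retains salt and drives aldosterone release. In mice its AT1 receptors come from separate genes, of which Agtr1a supplies the main form in the kidney, on vessels, mesangial cells and tubule epithelium. Loss of this receptor lowers blood pressure and raises renin through the lost feedback on renin-producing cells. A like sign in both states means only that the fitted difference pointed the same way with and without the infused peptide. It need not have been called in either state alone.

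Deposited values were ratios relative to the median of that probe set across all 12 kidneys. A value near 1 lies at that median, and levels of different genes, or the presence of a cell type's markers, cannot be read from them. Differences are KO minus WT on the log2 scale with a moderated standard error (SE), and a call means a limma p under 0.05 once adjusted by Benjamini-Hochberg over all probe sets. Precision is limited by having 3 arrays in a group, and array medians lay between 0.986 and 1.014. Log2 differences between 3 prime and 5 prime control probe sets, a sign of RNA quality, ran from 0.0362 to 0.0665 in the infused WT kidneys and from -0.0402 to 0.011 in the other groups. Averaged over the states they fell by 0.0309 from WT to KO (exact permutation test within states, two-sided, p = 0.02, with 0.005 the smallest the 400 arrangements allow). Their part in the results below was not tested. RNA came from whole kidneys, in which fewer cells of a type and less RNA per cell cannot be told apart.

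The averaged difference was called for 9318 probe sets, 20.7% of those tested, of which 4830 were higher in KO (10.7%) and 4488 lower (9.97%). Members made up 88.2% of these, while 60.3% of all tested probe sets had like signs in both states. The remaining 1101 called probe sets had opposite signs. The median absolute difference was 0.29 among members and 0.13 over all probe sets. Large differences lay mainly on the higher side: 795 members were higher by more than 0.5 and 87 lower by more than 0.5, and beyond 2 there were 12 higher and 3 lower. After a second quantile normalization of the ratios the members numbered 4126, of which 2455 were higher and 1671 lower, so the split moved from 47.1% to 59.5% higher. The last called probe set had an averaged difference of -0.23 and an adjusted p of 0.04998, and the first not called 0.18 and 0.05.

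The states did not contribute evenly. Baseline alone gave 2936 called probe sets, 6.52% of those tested, and ANG II alone 8934, or 19.8%. Of the members, 506 were called in both states, 1.12% of all probe sets, with 362 higher and 144 lower. The lower count was the less stable, with 301 under array weights and 60 after quantile normalization. A further 4213 members were called under ANG II only, 1092 at baseline only, and 2406 in neither state alone. Another 253 probe sets, 0.562%, were called in both states with opposite signs and are not members. The larger difference lay under ANG II in 66.4% of members. A change of the genotype difference with the infusion was called for 903 members, 11%, beside 9.78% of all probe sets, and 693 of these had the larger difference under ANG II and 210 at baseline.

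The strictest description is by the single arrays. For 795 members, 9.68%, the 6 KO arrays lay all above or all below the 6 WT arrays, beside 1.88% of all probe sets, and 418 of these were higher and 377 lower in KO, beside 0.981% and 0.897% of all probe sets. Members were called on these same arrays, so their larger share follows from the choice and adds no support. Some calls rest on single kidneys: the members called in both states fell in number to 204 without WT baseline replicate 3, 226 without KO baseline replicate 2, 264 without WT baseline replicate 2, 301 without KO ANG II replicate 1 and 302 without KO baseline replicate 1. Members numbered 4867, 4878, 5111 and 5193 without KO ANG II replicate 1, KO baseline replicate 2, WT baseline replicate 3 and WT baseline replicate 2. The 15 largest rises and 15 largest falls among members without overlap were called with the same sign under every alternative run for them, 600 of 600. They were picked for size and lack of overlap in these same arrays, so this outcome was largely set by the choice.

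**Figure D1:**
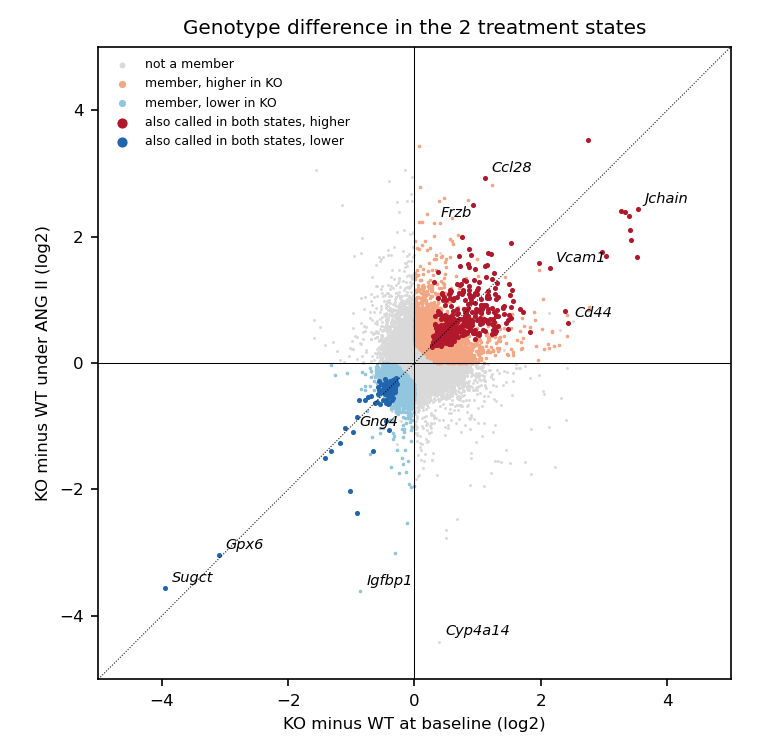
Each point is a probe set, with the KO minus WT difference at baseline on the horizontal axis and under ANG II on the vertical axis, both log2; colours mark members and the 506 called in both states. Jchain and Sugct lie far out near the dotted line of equal differences, while Ccl28, Frzb and Igfbp1 lie off it.

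The targeted gene met the definition of a member through baseline only. Agtr1a encodes the AT1A receptor, and its 1 probe set gave ratios of 1.37, 1.4 and 1.36 in WT baseline, 1.04, 0.923 and 0.965 in KO baseline, 0.957, 1 and 0.997 in WT ANG II and 0.983, 0.917 and 1.05 in KO ANG II. The WT baseline arrays stood above all others, and the remaining groups overlapped. The averaged difference was -0.25 ± 0.06 (SE, adjusted p = 0.0101), made of -0.49 at baseline and -0.00 under ANG II, and the change between states was called (adjusted p = 0.0158). The labels do not say whether the probe set lies in the deleted part, which limits it as a check of genotype.

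Of the 14 renin-angiotensin genes measured, 3 were called higher and 2 lower, beside 11.7% higher and 10.9% lower over all 18193 genes by 1 probe set each. Ace, which makes ANG II, averaged 0.47 ± 0.06 (adjusted p = 0.000498), but it differed by -0.01 at baseline and 0.96 under ANG II and is not a member. Anpep, an aminopeptidase that trims angiotensin peptides, behaved alike with -0.05 and 0.77, and Nln, a peptidase that can cleave angiotensin I, gave 0.03 and 0.77 at 1 probe set, while its other one averaged 0.16 and was not called. Cma1, the mast cell chymase, was lower, at -0.33 ± 0.11 (adjusted p = 0.0493), a call that was lost under 14 of the alternatives. Agt, the precursor, gave -0.28 (adjusted p = 0.0527), Agtr1b -0.20 (adjusted p = 0.092), and Agtr2 0.00 with a sign that changed under 7 alternatives. With 1 array left out, 3 to 4 genes of the list were called higher and 1 to 3 lower.

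The largest rises were in transcripts of antibody-secreting cells and in the chemokine that draws them. Jchain encodes the joining chain of secreted IgA and IgM. Its ratios were 0.481, 0.481 and 0.354 in WT baseline, 6.69, 3.72 and 5.09 in KO baseline, 0.24, 0.622 and 0.334 in WT ANG II and 2.68, 1.38 and 2.13 in KO ANG II. Every KO array lay above every WT array, and Jchain was 7.91-fold higher in KO on average (log2 2.98 ± 0.22, adjusted p = 6.39e-06). Igha, the heavy chain constant region of IgA, gave 0.519, 0.502 and 0.462 in WT baseline, 6.85, 3.71 and 5.47 in KO baseline, 0.398, 0.401 and 0.462 in WT ANG II and 2.83, 1.48 and 2.24 in KO ANG II. Its averaged rise was 2.86 ± 0.15 (adjusted p = 4.02e-07), seen by all 3 of its probe sets. At this probe set it was larger at baseline (3.39) than under ANG II (2.33, adjusted p of the change 0.0442). At its other probe sets the change was not called (adjusted p = 0.1099 and 0.1095).

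Of 16 probe sets of kappa light chain variable genes, 8 were called higher and 5 lay below 0. Those named Igkv8-30 and Igkv9-120 were higher by 2.76 and 2.60, and as probe sets of the _x_at kind they may share sequence with other variable genes, so the gene names are uncertain; the other 2 probe sets of Igkv9-120 gave -0.07 and 0.16 and were not called. The Igha probe set given above is of this kind too. Of 39 probe sets of immunoglobulin genes and Jchain, which were grouped after values had been seen, 13 were called higher and 0 lower, beside 10.7% and 9.97% of all probe sets, 8 of the 13 without overlap, beside 0.981%, and the median over the 39 was 0.16. Ighm, the heavy chain of IgM, had no called probe set: its largest averaged difference was 1.46 (adjusted p = 0.0619; 1.85 and 0.0194 without KO ANG II replicate 2), with KO ANG II replicate 1 at 8.5 and KO baseline replicate 2 at 7.29 against 0.592 to 2.06 in the other KO arrays. Iglv1, a lambda light chain gene, had 1 called probe set, at 1.72 (adjusted p = 0.0104). Its others, at -0.04 and 0.25, were not called. The rise was thus measured for IgA, some kappa light chain probe sets and 1 of Iglv1, and was not resolved for IgM. In the list of T and B lymphocyte markers, which holds Jchain, 2 of 10 were called higher and 2 lower, beside 11.7% and 10.9% over all genes. The median of this list was -0.01. Cd3e and Cd4, which mark T cells, were the lower pair at -0.26 and -0.19, and Cd3g was the other higher one at 0.23, and each of these 3 calls was lost under at least 11 of the alternatives.

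Ccl28, a mucosal chemokine that attracts IgA-secreting cells through CCR10, went the same way with another course over the states. Its ratios were 0.611, 0.846 and 0.892 in WT baseline, 1.86, 1.11 and 2.3 in KO baseline, 0.685, 0.6 and 0.665 in WT ANG II and 4.61, 4.63 and 5.67 in KO ANG II. The 6 KO arrays lay above the 6 WT arrays, and the averaged rise was 2.03 ± 0.15 (adjusted p = 6.39e-06). The difference was 1.12 at baseline and 2.93 under ANG II (adjusted p of the change 0.00246), so Ccl28 was highest in the infused KO kidneys, whereas Jchain and Igha were highest in the untreated ones.

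Interferon-stimulated genes were higher in KO in both states, by similar amounts. Of 25 measured, 15 were called higher and 1 lower, beside 11.7% and 10.9% over all genes, with a median of 0.33 against -0.02 over all genes. The list's median was 0.46 at baseline and 0.33 under ANG II. The change between states was called for 1 of the 25, beside 9.78% of all probe sets. After quantile normalization the averaged count was 12 higher and 0 lower. Type I interferons act on many of these genes through a promoter sequence called the interferon-stimulated response element. The letters GAAANNGAAA, a core of this element, were searched on both strands of the 250 bases before the start of each gene in RefSeq (GRCm38.p6), with no other motif searched. They were in 936 of 27025 promoters, 3.46%, and in 10 of the 19 listed genes with a promoter in the table. Among the listed genes called higher, 7 of 12 held a match, and among the others 3 of 7. The following promoters are shown because they put the match beside the measured difference in called genes (Gbp2, Ifit1, Bst2) and in a relative of Ifit1 that was not called (Ifit3). Capitals mark the matches.
Gbp2 (chr3:142620413-142620662, plus strand): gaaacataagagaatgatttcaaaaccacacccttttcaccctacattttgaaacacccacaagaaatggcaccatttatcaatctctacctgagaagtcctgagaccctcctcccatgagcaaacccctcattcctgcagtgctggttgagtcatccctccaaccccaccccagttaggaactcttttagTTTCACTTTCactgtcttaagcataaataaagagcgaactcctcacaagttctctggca
Ifit1 (chr19:34640639-34640888, plus strand): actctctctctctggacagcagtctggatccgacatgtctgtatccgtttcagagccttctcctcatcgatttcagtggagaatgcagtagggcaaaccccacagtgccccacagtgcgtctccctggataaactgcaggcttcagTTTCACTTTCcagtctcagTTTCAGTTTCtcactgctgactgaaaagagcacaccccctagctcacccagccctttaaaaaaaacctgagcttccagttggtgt
Bst2 (chr8:71537473-71537722, minus strand): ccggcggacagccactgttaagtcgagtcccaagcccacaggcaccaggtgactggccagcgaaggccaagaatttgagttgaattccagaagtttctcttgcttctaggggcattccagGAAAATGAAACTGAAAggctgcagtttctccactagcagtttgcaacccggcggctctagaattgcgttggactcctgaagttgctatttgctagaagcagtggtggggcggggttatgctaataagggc
Ifit3 (chr19:34583279-34583528, plus strand): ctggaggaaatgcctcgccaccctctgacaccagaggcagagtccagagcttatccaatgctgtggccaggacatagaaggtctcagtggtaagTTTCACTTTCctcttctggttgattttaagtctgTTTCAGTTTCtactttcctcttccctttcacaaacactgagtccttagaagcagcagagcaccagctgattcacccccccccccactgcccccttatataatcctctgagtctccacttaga

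Gbp2, a guanylate-binding GTPase of cell-autonomous defence with the match 59 bases before its start, gave ratios of 1.03, 0.979 and 0.809 in WT baseline, 1.94, 1.98 and 1.76 in KO baseline, 0.572, 0.662 and 0.525 in WT ANG II and 1, 1.12 and 0.997 in KO ANG II. KO lay above WT within each state, and the lowest KO array fell just below the highest WT array across states. The averaged rise was 0.93 ± 0.08 (adjusted p = 1.69e-05), 1.02 at baseline and 0.83 under ANG II. Ifit1, an RNA-binding antiviral protein with 2 matches, was higher by 0.71 ± 0.12 (adjusted p = 0.00185), and Bst2 (tetherin), which holds budding virions to the cell, by 0.45 ± 0.07 (adjusted p = 0.00136). Ifit3, with 2 matches as well, gave 0.37 ± 0.14 (adjusted p = 0.0771) and was not called, though it was without KO ANG II replicate 3 (0.50, adjusted p = 0.0129). Stat2 had 1 match and differed by 0.09 (adjusted p = 0.404). A match is a description of letters, and no binding was measured.

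Other members of the list were the 2'-5'-oligoadenylate synthetase relative Oasl2 at 1.02 ± 0.11 (adjusted p = 6.49e-05), the chaperone Rtp4 at 0.80, and Usp18, a protease that removes ISG15 and dampens interferon signalling, at 0.74. Usp18 differed by 0.69 at baseline and 0.79 under ANG II. Outside the list, Iigp1, a GTPase of the same defence system, was higher by 1.23 ± 0.19 (adjusted p = 0.00104), with 1.28 and 1.18 in the states and no overlap of the arrays. Its other probe set, at 0.93 (adjusted p = 0.00212), was called with overlap. Gbp6 had the largest value of the list, 1.19 ± 0.36, and lost its call under 7 alternatives. Mx2 was the 1 called lower, at -0.25 (adjusted p = 0.0497), a call lost under 13 alternatives.

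Genes of antigen presentation followed. Of 14 measured, 11 were called higher and 0 lower, beside 11.7% and 10.9% over all genes, with a median of 0.56 against -0.02 over all genes, and 10 were called higher after quantile normalization. The arrays did not overlap for 6 of the 14, beside 0.981% of all probe sets. The mean log2 ratio of the list was -0.257 to -0.019 in WT baseline, 0.501 to 0.734 in KO baseline, -0.404 to -0.253 in WT ANG II and 0.019 to 0.092 in KO ANG II. Macrophages also express MHC class II, and their markers, described next, were highest in KO baseline and lowest in WT ANG II as well; their part in this difference was not tested. H2-Aa, an MHC class II chain, gave 1, 0.999 and 0.788 in WT baseline, 2.73, 2.38 and 1.88 in KO baseline, 0.378, 0.635 and 0.579 in WT ANG II and 1.21, 0.944 and 1.07 in KO ANG II. The groups separated within each state, and the averaged rise was 1.18 ± 0.13 (adjusted p = 0.000104). Cd74, the invariant chain that guides class II molecules, was higher by 1.02 ± 0.12, and H2-Ab1 and H2-Eb1 by 0.95 each. Psmb8, a subunit of the immunoproteasome that cuts peptides for MHC class I, was higher by 0.78 ± 0.08 (adjusted p = 6.57e-05) in every KO array over every WT array. Of class I itself, H2-D1 gave 0.60, H2-K1 0.25 and B2m 0.22. H2-K1 differed by 0.63 at baseline and -0.12 under ANG II (adjusted p of the change 0.00255) and is not a member, and it was not called in a model without interaction (adjusted p = 0.154). The call of B2m was lost after quantile normalization (0.12, adjusted p = 0.306) and without WT baseline replicate 3 (0.18, adjusted p = 0.0518).

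Macrophage markers were higher in KO. Of 15 measured, 13 were called higher and 1 lower, beside 11.7% and 10.9% over all genes. The median was 0.985 against -0.02 over all genes, and 12 and 1 were called after quantile normalization. C1qb, a chain of complement C1q made mainly by macrophages, gave 1.01, 0.991 and 0.761 in WT baseline, 3.53, 3.19 and 2.15 in KO baseline, 0.55, 0.718 and 0.631 in WT ANG II and 1.44, 0.968 and 1.06 in KO ANG II. KO exceeded WT within each state, with overlap between KO ANG II and WT baseline, and the averaged rise was 1.26 ± 0.13 (adjusted p = 7.63e-05). Lyz2, lysozyme of myeloid cells, was higher by 1.59 ± 0.23, Ctss, a lysosomal protease, by 1.26, C1qc by 1.14 and Adgre1, a macrophage surface receptor, by 0.80. Laptm5, a lysosomal protein of blood cells, was the 1 called lower, at -0.32 (adjusted p = 0.00867), but the mean of all its probe sets was higher, at 0.31 (adjusted p = 0.00323). Averaged over the list, the log2 ratio was -0.323 to 0.028 in WT baseline, 0.684 to 1.251 in KO baseline, -0.614 to -0.314 in WT ANG II and -0.132 to 0.306 in KO ANG II.

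Ms4a7, a macrophage membrane protein, and Lyz1, a lysozyme whose _x_at probe set may share sequence with Lyz2, were higher by 1.20 and 1.82 and more so at baseline. Each also had a probe set that was not called, at 0.08 for Ms4a7 and 0.03 for Lyz1. Vcam1, the endothelial adhesion molecule that binds leukocytes and is also made by injured tubules, gave 0.696, 0.884 and 0.581 in WT baseline, 3.73, 3.48 and 2.36 in KO baseline, 0.4, 0.43 and 0.398 in WT ANG II and 1.21, 1.12 and 1.15 in KO ANG II. No array overlapped between the genotypes, the averaged rise was 1.82 ± 0.11 (adjusted p = 1.28e-06), and all 3 probe sets were called. However, 1 of the 3, at 0.39, is not a member, with 0.80 at baseline and -0.01 under ANG II. Cd44, a hyaluronan receptor of activated leukocytes and injured epithelium, was higher by 1.53 ± 0.14 (adjusted p = 2.63e-05), with 2.43 at baseline and 0.63 under ANG II, and 1 of its 4 probe sets was not called, at -0.09. Another was called at 0.41 but is not a member, with 0.90 at baseline and -0.09 under ANG II. Of 7 neutrophil markers 0 were called higher and 1 lower, near the shares of all genes: Cxcr2, a chemokine receptor, at -0.36 (adjusted p = 0.0218), a call lost after quantile normalization and without KO baseline replicate 2.

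**Figure D2:**
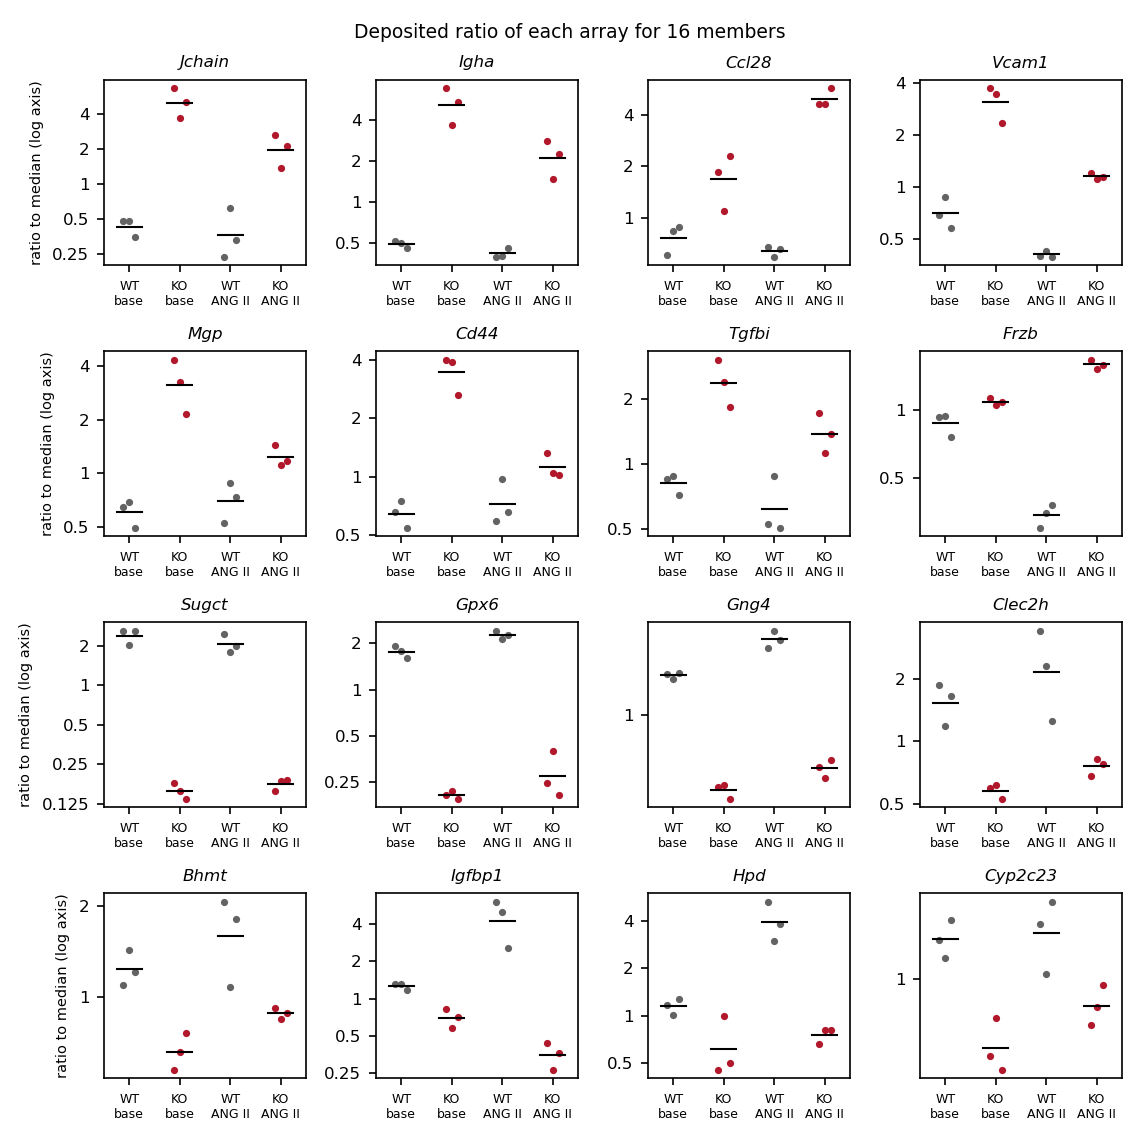
Each panel shows the deposited ratio of the 12 arrays for 1 member on a log axis, grouped by genotype and state, with a line at each group's geometric mean; grey is WT and red KO. The 6 KO arrays of Jchain lie between 1.38 and 6.69 and its 6 WT arrays between 0.24 and 0.622, while for Sugct the KO arrays lie at or under 0.188.

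In the averaged difference most matrix and fibrosis genes were called higher in KO and none lower. Of 28 measured, 19 were called higher and 0 lower, beside 11.7% and 10.9% over all genes. The median was 0.56 against -0.02 over all genes, and 16 and 0 were called after quantile normalization. At baseline 14 were called higher and 0 lower, and under ANG II 9 and 1, beside 6.52% and 19.8% of all probe sets called either way. Mgp, an inhibitor of vessel and matrix calcification, gave 0.647, 0.69 and 0.496 in WT baseline, 4.36, 3.28 and 2.16 in KO baseline, 0.525, 0.887 and 0.737 in WT ANG II and 1.45, 1.11 and 1.18 in KO ANG II. Its groups did not overlap, and the averaged rise was 1.60 ± 0.16 (adjusted p = 6.23e-05), less under ANG II (0.82) than at baseline (2.37). Tgfbi, a matrix protein induced by TGF-beta, was higher by 1.35 ± 0.15 at the largest of its 4 probe sets, one of the _x_at kind, and by 1.14 to 1.29 at the others, all 4 called and without overlap. Fn1 (fibronectin) gave 1.12 ± 0.17 (adjusted p = 0.00119), Col3a1 1.12 ± 0.25 and Col1a1 1.09 ± 0.21, chains of the fibrillar collagens, each with nearly the same difference in both states, such as 1.14 and 1.11 for Col3a1.

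Fn1 shows how the kidneys varied within groups. Its ratios were 0.871, 1.01 and 0.587 in WT baseline, 2.35, 1.88 and 1.31 in KO baseline, 0.45, 0.745 and 0.579 in WT ANG II and 1.57, 0.994 and 1.17 in KO ANG II. The genotypes separated within each state, and 1 WT baseline kidney stood just above the lowest KO kidney. Over the list the mean log2 ratio was -0.305 to 0.072 in WT baseline, 0.311 to 0.94 in KO baseline, -0.571 to -0.223 in WT ANG II and -0.035 to 0.292 in KO ANG II. The macrophage list moved with it across the groups, as given above, and its part in the matrix difference was not tested. Smoc2, a matrix protein of activated fibroblasts, averaged 1.33 ± 0.28 and Lum (lumican) 1.13 ± 0.21, both larger at baseline without a called change between states. Of 12 renin cell and vascular smooth muscle markers, 4 were called higher and 0 lower, beside 11.7% and 10.9% over all genes. Tagln, a smooth muscle actin-binding protein, led them at 0.96 ± 0.19. Of these 4, 3 were members. At baseline 4 of the markers were called higher and under ANG II 0, beside 6.52% and 19.8% of all probe sets called either way. Frzb, a secreted WNT antagonist, was higher by 1.26 ± 0.07 (adjusted p = 5.97e-07), with 0.31 at baseline and 2.21 under ANG II.

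**Figure D3:**
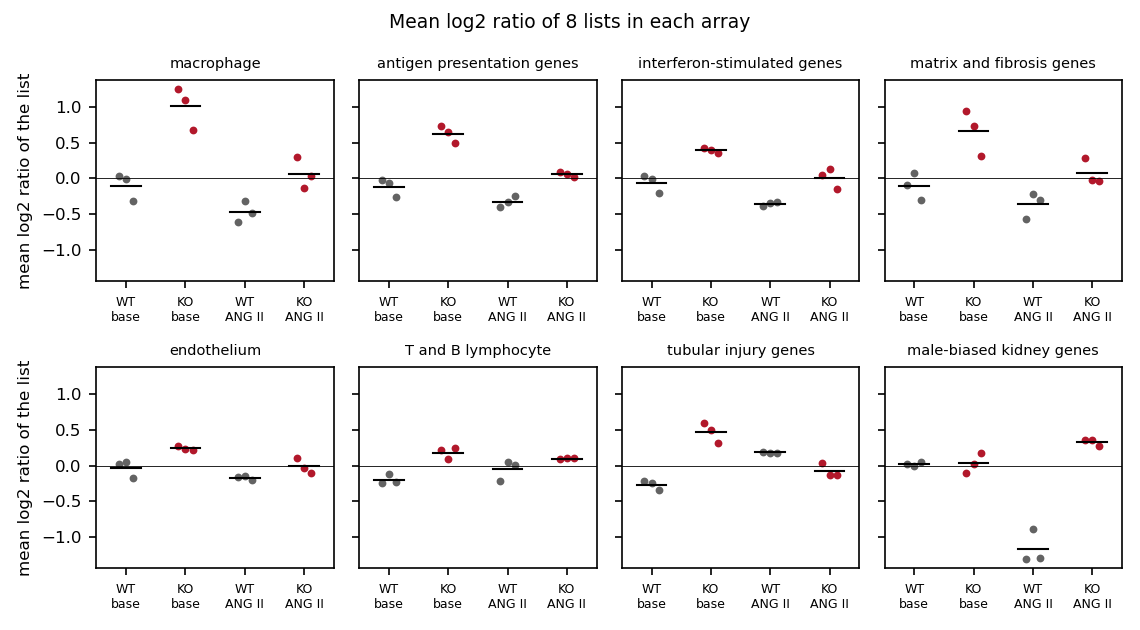
Each point is the mean log2 ratio of a list's genes in 1 array, by genotype and state, with a line at the group mean. Macrophage, antigen presentation, interferon and matrix lists lie higher in KO than in WT in both states, whereas the male-biased list departs in the WT ANG II arrays, at -1.311 to -0.886.

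The falls of Sugct and Gpx6, the largest among members, were nearly equal in both states. Sugct, a mitochondrial CoA-transferase of glutarate metabolism, gave 2.59, 2.04 and 2.62 in WT baseline, 0.179, 0.157 and 0.136 in KO baseline, 2.46, 1.81 and 2.01 in WT ANG II and 0.155, 0.187 and 0.188 in KO ANG II. The KO arrays were 13.5-fold lower on average (log2 -3.75 ± 0.10, adjusted p = 1.02e-10), with -3.94 at baseline and -3.56 under ANG II. Its other probe set did not show this: it was called the other way, at 0.18 ± 0.06 (adjusted p = 0.0438), with -0.28 at baseline and 0.63 under ANG II. The fall is thus a fact of 1 of 2 probe sets. Gpx6, a glutathione peroxidase with 1 probe set, gave 1.92, 1.79 and 1.6 in WT baseline, 0.208, 0.219 and 0.196 in KO baseline, 2.41, 2.13 and 2.26 in WT ANG II and 0.247, 0.402 and 0.208 in KO ANG II. It was lower, at -3.07 ± 0.12 (adjusted p = 1.83e-08), with -3.09 and -3.04 in the states.

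Gng4, a G protein gamma subunit, was lower, at -1.03 ± 0.05 (adjusted p = 4.02e-07), with -0.98 and -1.09 in the states and all 3 probe sets called. Hfe, the hemochromatosis protein that tunes iron uptake, was picked after its values were seen. It gave 1.14, 1.23 and 1.07 in WT baseline, 0.763, 0.736 and 0.723 in KO baseline, 1.53, 1.14 and 1.16 in WT ANG II and 0.764, 0.771 and 0.934 in KO ANG II. The genotypes did not overlap, and the difference was -0.63 ± 0.08 (adjusted p = 0.000415), with -0.63 in each state.

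These 4 genes are on chromosome 13, as is Agtr1a, in the gene order of GRCm38.p6. Counted in table genes to one side of Agtr1a, Hfe was 114, Gpx6 379, Sugct 468 and Gng4 503 genes away. On the other side lay further members lower by more than 0.5: Omd 336, Fbp2 695, Slc6a19 948, Bhmt 1176 and Adamts6 1390 genes away. Chromosome 13 held 11 of the 75 placed member probe sets lower by more than 0.5, which is 14.7%, from 9 genes, while it held 3.95% of placed probe sets; the next was chromosome 11 with 8. This count was made after the values were seen and has no test. Among members without overlap, the chromosome held as many probe sets higher as lower, 15 each, and the higher ones included all 4 of Tgfbi, 546 genes away, and 2 of Ccl28, 1588 genes away. The share of its genes called was not raised, 21.4% against 22.6% of all genes. Among the 42 array genes within 50 table genes on either side of Agtr1a, itself included, 10 were called, 23.8%, with 3 members higher and 6 lower. Serpinb6b, a protease inhibitor, was higher by 0.56, and the lower ones included Serpinb9b at -0.29 and 1700018A04Rik at -0.24, the last not called without KO baseline replicate 2. The sources used here give neither the strain in which the deletion was made nor that of the neighbouring chromosome, so genotype and linked sequence cannot be told apart.

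**Figure D4:**
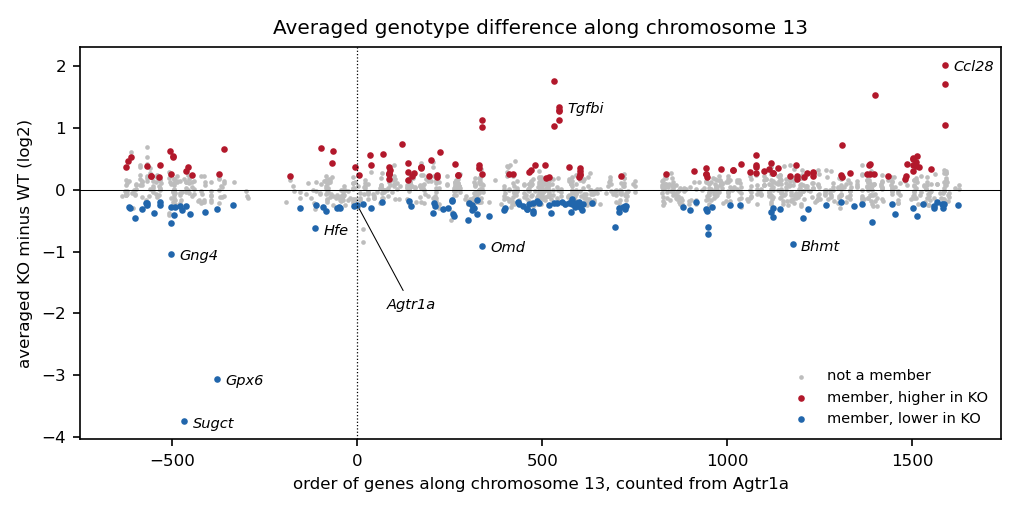
Each point is a probe set on chromosome 13, placed by the order of its gene counted from Agtr1a, with the averaged KO minus WT difference (log2) on the vertical axis. Sugct at -3.75 and Gpx6 at -3.07 stand far below the others, on the same side of Agtr1a as Gng4 and Hfe.

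Other falls had no called change between the states. Clec2h, a C-type lectin-like membrane protein, gave 1.87, 1.18 and 1.65 in WT baseline, 0.595, 0.615 and 0.529 in KO baseline, 3.41, 2.31 and 1.25 in WT ANG II and 0.681, 0.821 and 0.776 in KO ANG II. No array overlapped at this probe set, and it was lower, at -1.46 ± 0.19 (adjusted p = 0.000322), with -1.41 and -1.50 in the states. The other Clec2h probe sets, at -1.36 and -1.22, were also called, but their arrays overlapped. Bhmt, which remethylates homocysteine with betaine, was lower, at -0.89 ± 0.13 (adjusted p = 0.00101), with -0.91 and -0.86. Cyp2c23, the main arachidonic acid epoxygenase of the rodent kidney, was lower, at -0.73 ± 0.10 (adjusted p = 0.000697), and Cyp2d26, at -0.69. The uncharacterised 4931408D14Rik was lower, at -1.06 ± 0.12, with -1.09 and -1.03.

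A second set of falls was larger under ANG II. Igfbp1, a binding protein that restrains insulin-like growth factors, gave 1.31, 1.3 and 1.18 in WT baseline, 0.818, 0.581 and 0.71 in KO baseline, 6.07, 5.01 and 2.55 in WT ANG II and 0.437, 0.265 and 0.365 in KO ANG II. The genotypes did not overlap, but the infused WT kidneys stood far above the rest. The averaged fall was -2.24 ± 0.18 (adjusted p = 1.2e-05), made of -0.86 at baseline (adjusted p = 0.0616) and -3.61 under ANG II, and the change was called (adjusted p = 0.000518). Hpd, an enzyme of tyrosine breakdown, gave -1.64 ± 0.18 with -0.91 and -2.38. Fgfbp1, which releases fibroblast growth factors from matrix, gave -0.73 ± 0.08 with -0.32 and -1.15, and Kcnip2, a potassium channel subunit, -0.73 ± 0.08 with -0.41 and -1.05. The other 2 probe sets of Kcnip2, at -0.09 and -0.48, were not called. Lrat, which esterifies retinol, averaged -1.03, Omd (osteomodulin) -0.91 and Slc6a4, the serotonin transporter, -0.79, without a called change between states.

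Among the remaining rises without overlap were Tc2n, a C2-domain protein, at 1.37 ± 0.10 with 0.74 at baseline and 1.99 under ANG II, Ctxn3 (cortexin 3) at 1.47 ± 0.18 with 1.21 and 1.73, and the transcript BC018473 at 1.28 ± 0.19 with 1.22 and 1.34. All 4 Tc2n probe sets were called, though the arrays overlapped at the probe set with 0.73. The other probe set of BC018473 gave 0.19 (adjusted p = 0.1995), with -0.06 at baseline, and was not called.

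Averaging also called genes whose difference lay almost wholly under ANG II. Several of these had opposite signs in the states and are not members. Cyp4a14, a fatty acid hydroxylase induced through PPAR alpha, averaged -2.01 with 0.39 at baseline and -4.41 under ANG II, and 3110040M04Rik averaged 1.45 with -0.15 and 3.05. Odc1, the first enzyme of polyamine synthesis, averaged 1.31 with -0.06 and 2.67, and the carriers Slco1a1 and Slc51a averaged 1.23 and 1.26 with -0.11 and -0.03 at baseline. The lists they belong to read accordingly. Of 10 male-biased kidney genes 7 were called higher and 0 lower, beside 11.7% and 10.9% over all genes. Their median of 0.94 splits into -0.05 at baseline and 1.77 under ANG II, and 3 of the 7 were members. Nudt19, a peroxisomal nudix hydrolase, was the 1 without overlap, at 0.90 ± 0.07 (adjusted p = 7.81e-06), and Acsm3 averaged 1.44 with 0.09 and 2.78.

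Of 25 proximal tubule transport genes 10 were called higher and 6 lower, beside 11.7% and 10.9% over all genes. Of these, 3 and 5 were members, and 5 and 5 genes of the list were called after quantile normalization. The basolateral anion carrier Slc22a7 averaged 1.47 with 0.38 and 2.56. Members lower in both states included Slc7a7 and Slc7a9, which carry basic amino acids, at -0.61 ± 0.12 and -0.38 ± 0.09. Of 24 genes of fatty acid oxidation and PPAR alpha targets 0 were called higher and 4 lower, among them the thioesterase Acot3 at -0.67 with -0.17 and -1.17; without WT ANG II replicate 3 the counts were 3 and 3. Of 5 female-biased genes 2 were called higher, Slc22a7 and Akr1c18, and 1 lower, Cyp4a14.

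None of 8 thick ascending limb, 7 distal convoluted tubule or 9 principal cell markers was called, beside 11.7% higher and 10.9% lower over all genes. The difference changed with the infusion in 6 of 12 proximal tubule markers, beside 9.78% of all probe sets. Of these 12 markers 2 were called higher and 3 lower. With 1 array left out, these counts were 1 to 3 and 2 to 4, and the other 3 segments had at most 2 called either way. Intercalated cells had 0 of 9 called higher and 2 lower, both lost after quantile normalization and without any 1 of 8 arrays. Of 14 endothelial markers 7 were called higher and 0 lower, beside 11.7% and 10.9% over all genes, with 4 and 0 after quantile normalization. Kdr, the VEGF receptor, averaged 0.40 with 0.06 at baseline and 0.74 under ANG II, and Vwf, von Willebrand factor, 0.73 with 1.25 and 0.21, so these markers did not share a state. Of 10 podocyte markers 4 were called higher and 1 lower, led by Cdkn1c, a cell cycle inhibitor, at 0.61 ± 0.10, and 1 and 0 after quantile normalization; the higher count fell to 1 without KO baseline replicate 2 or WT baseline replicate 3, and to 2 without any 1 of 5 others. Of 7 adrenal cortex markers, which tissue next to the kidney could bring in, 0 were called higher and 4 lower, with Nr5a1, the steroidogenic factor, at -0.37 ± 0.08, and 1 was called lower after quantile normalization, 1 without KO ANG II replicate 3 or WT baseline replicate 3, and 2 without KO baseline replicate 2 or either of WT ANG II replicates 2 and 3. Erythrocyte markers had 0 of 3 called. Adipocyte markers had 1 of 6 called each way, of which Car3 averaged 0.74 from -1.56 at baseline and 3.05 under ANG II and turned to -0.12 after quantile normalization.

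**Figure D5:**
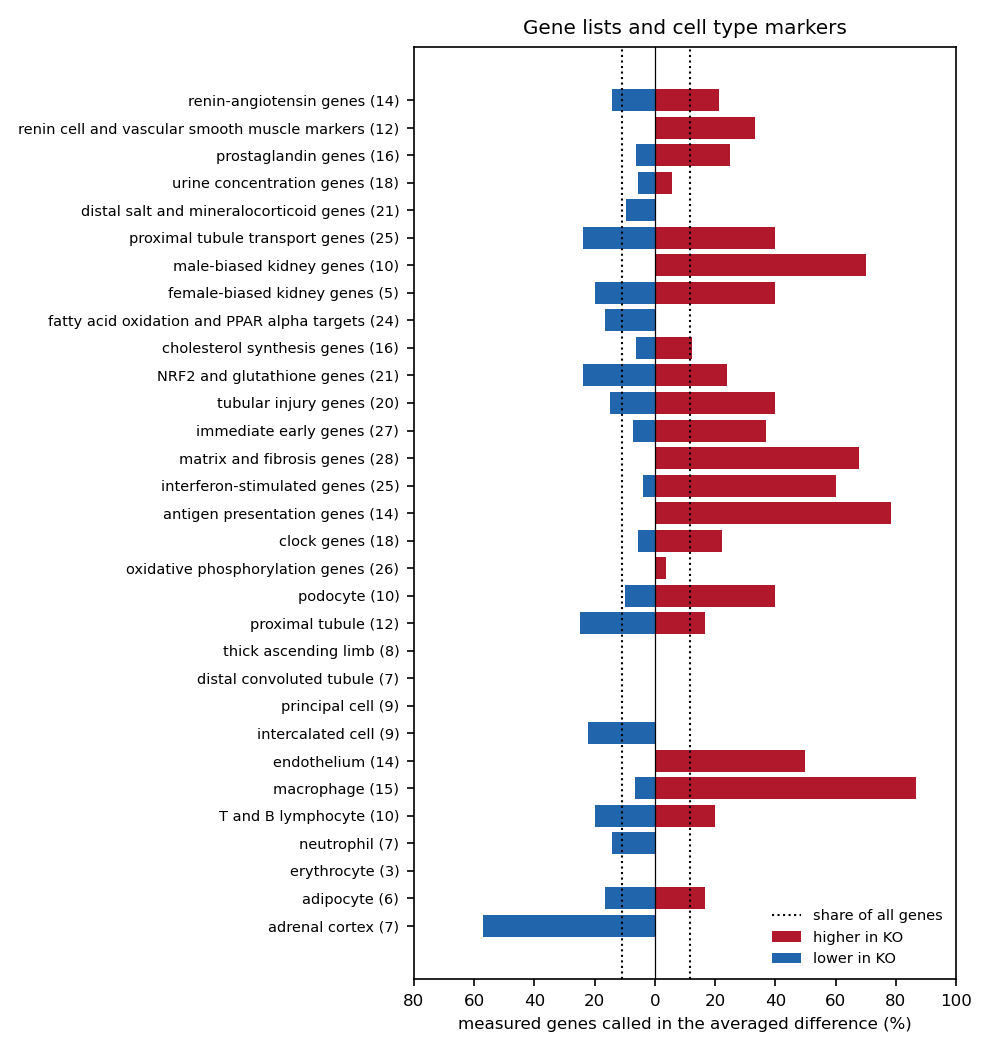
Bars give the share of each list's measured genes (number in brackets) called higher (right) or lower (left) in KO in the averaged difference, and dotted lines the shares of all genes, 11.7% and 10.9%. Macrophage (13 of 15), antigen presentation (11 of 14), male-biased (7 of 10), matrix (19 of 28) and interferon (15 of 25) lists reach farthest to the right.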

How the data were processed

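Kidney RNA of 12 mice was measured on 12 arrays in 4 groups of 3. Per the submitters' processing notes the authors used RMA. The deposited values are on a linear scale, and the values themselves show that each is a ratio to the probe set's median over the 12 arrays (within 0.002 of 1 for 45099 of 45101 probe sets); the division is not stated, and the scaling behind it stays unknown. Here log2 was taken of the ratios, 64 control probe sets were left out, and a mean per group was fitted with limma 3.58.1 in R 4.3.3 (two-sided, no variance trend, 8 residual and 5.83 prior degrees of freedom), with Benjamini-Hochberg adjustment over 45037 probe sets. The averaged contrast weights both states equally.

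Genes of a list were taken by 1 probe set each, plain _at names first, then the lowest number, and lists were described by counts and medians. Named genes were the renin-angiotensin list, the 15 largest rises and 15 largest falls among members without overlap of the 6 KO and 6 WT arrays, up to 4 called genes of each list, called genes within 50 genes of Agtr1a, and the 5 largest members that change with the infusion and 5 largest called probe sets of opposite sign. Other genes given as examples were chosen after their values were seen. Symbols are those of the array annotation: 34945 probe sets carried 1 symbol, 932 several and 9160 none, and Ren1 had no probe set of 1 symbol. Of 18193 genes 18029 were placed by RefSeq's table of GRCm38.p6. Members and lists were chosen with earlier results of these data known. The alternatives were quantile normalization, median centring, a robust prior, array weights, a model without interaction, the replicate number as a block, a filter on low spread, each array left out, 1 probe set per gene, and averaging over all probe sets of a gene. The procedure was tested on simulated data. Each array came from a separate mouse per the labels, and the replicate numbers name samples only.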

Additional observations from a re-analysis of the deposited data

Results flagged for a closer look

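The groups hold 3 arrays each, too few for a search for single outlying arrays. What singles out the results here is that the KO minus WT difference changed with the infusion, tested in limma as the difference under ANG II less that at baseline (log2, adjusted p under 0.05 over all probe sets). Of the probe sets named in the text, 50 met this, and 31 of them had the larger difference under ANG II. No explanation was tested.

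Negative changes stand for a genotype difference that moved downward under ANG II. Among immune and matrix genes these were Lyz1 at -1.87, Igkv9-120 at -1.84, Cd44 at -1.79, Lyz2 at -1.66, Mgp at -1.55, Ms4a7 at -1.25, Igha at -1.06 (not called at its other probe sets, adjusted p = 0.1099 and 0.1095), Vim at -0.82, Vcam1 (the probe set standing for the gene in its list) at -0.81, Serpinb9 at -0.77, H2-K1 at -0.75 and H2-Ab1 at -0.73. These genes were higher in KO in the untreated kidneys and less so, or not, in the infused ones. Among enzymes, carriers and regulators they were Cyp4a14 at -4.80, Hmox1 at -3.13, Igfbp1 at -2.75, Foxq1 at -1.84 and -1.61 for its 2 probe sets, Gsta2 at -1.60, Hpd at -1.47, Acot3 at -0.99, Fgfbp1 at -0.83 and Kcnip2 at -0.65. Egr2 at -1.34, Fos at -1.90, Cry1 at -1.78, Lcn2 at -3.29, Vwf at -1.04, Scnn1a at -0.56 and Aqp1 at -0.64 did likewise.

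Positive changes stand for a difference that moved upward under ANG II. They were Car3 at 4.61, 3110040M04Rik at 3.20, Slco1a1 at 2.99 and 2.68 for its 2 probe sets, Odc1 at 2.73, Acsm3 at 2.69, Slc51a at 2.60, Slc22a7 at 2.17, Frzb at 1.90, Ccl28 at 1.81, Tc2n at 1.25, Nr1d1 at 1.22, Cycs at 1.14, Ace at 0.97, Anpep at 0.82, Nln at 0.74, Kdr at 0.68, Ehd3 at 0.50 and Agtr1a at 0.49. Idi1 at 2.20 and Akr1c18 at 1.35 did likewise.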

How the results depend on the processing

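The averaged difference was called for 4552 probe sets after quantile normalization, 5250 in a model without interaction, 4439 genes with 1 probe set per gene, and 5543 to 11217 with 1 array left out. The members numbered 4126, of which 3942 were among the 8217, after quantile normalization, 3864 with 1 probe set per gene (fewer were tested), and 4867 to 9816 with 1 array left out. The probe sets called in both states in the same direction numbered 288, 264 and 204 to 526 in the same order. Members whose difference changed with the infusion numbered 384, 441 and 485 to 1074, alternatives that were chosen after seeing the data for this count. Median centring, the robust prior, array weights and the filter on low spread kept these counts within 1.5 times, though of those called in both states the lower ones rose from 144 to 301 under array weights and ran from 27 to 208 with 1 array left out, fewest without WT baseline replicate 3. Median centring moved the share of members that were higher from 47.1% to 54.7%. The 3 prime against 5 prime control difference ran from -0.0369 to -0.0267 with 1 array left out and kept its side of the threshold.

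Over the 169 named probe sets 3049 of 3368 alternatives kept direction and call, 271 lost the call, 28 gained one and 20 turned the sign. Signs turned on averaging over all probe sets of a gene for Des (-0.0275), Synpo (0.0333), Slc8a1 (0.036), Laptm5 (0.3127) and the second probe set of Sugct (-1.7866), and after quantile normalization for Car3 (-0.12) and Prcp (-0.0139). Array weights turned Agtr2 to -0.0108 and Prcp to -0.0117. With 1 array left out Agtr2 ran from -0.0493 to 0.0491 and Prcp from -0.0333 to 0.0742, and neither was called. The cause was not tested.

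The replicate numbers were not taken to pair the samples: over 18 same-numbered pairs of deviations r ran from -0.157 to 0.219, and 6 were over 0.1. The 3 same-numbered pairs of WT baseline and WT ANG II were all among these (0.186, 0.183 and 0.128), whereas the 6 same-numbered KO and WT pairs within a state ran from -0.097 to 0.1. With the replicate number as a block the averaged difference was called for 9554 probe sets, members numbered 8452, those called in both states 598 and those changing with the infusion 889. Signal over background, which limits calls on dim probe sets, cannot be read from ratios.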

Other observations

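Over all genes 11.7% were called higher and 10.9% lower, and the averaged counts below stand beside these shares. Of all probe sets, 6.52% were called at baseline, 19.8% under ANG II and 9.78% for the change between states. Of 27 immediate early genes, which respond within minutes to stimuli and to tissue handling, 10 were called higher and 2 lower, and 4 and 0 after quantile normalization. At baseline 15 were called higher and 0 lower, with a median of 0.63, and under ANG II 0 and 2, with a median of -0.17. The change between states was called for 13 of the 27. The transcription factor Egr1 averaged 1.34 ± 0.27 with 2.18 at baseline and 0.50 under ANG II, Egr2 1.01 with 1.68 and 0.34, and Fos 1.01 with 1.96 and 0.05. Of 20 tubular injury genes 8 were called higher and 3 lower in the average, but the states differed. At baseline 10 were called higher and 0 lower, with a median of 0.55, and under ANG II 5 and 7, with a median of -0.16. The change between states was called for 12 of the 20. Vim, an intermediate filament of dedifferentiated tubules and stroma, averaged 0.77 ± 0.11 and Lcn2, a siderophore-binding injury marker, 0.75 from 2.39 at baseline and -0.89 under ANG II. Hbegf, a growth factor of the EGF family, and Il34, a macrophage growth factor, were higher by 0.37 and 0.41 without overlap of the arrays, while the fibrinogen chain Fgg was lower, at -0.78 ± 0.13.

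Of 21 NRF2 and glutathione genes 5 were called higher and 5 lower, and 2 and 4 after quantile normalization. Gclc and Gclm, the subunits of the enzyme that limits glutathione synthesis, were higher by 0.39 and 0.33 with like values in both states, and Gsta2 and Hmox1 were lower, at -0.93 and -0.89, from -0.13 and 0.67 at baseline. Of 16 prostaglandin genes 4 were called higher and 1 lower, with the receptor Ptger4 at 0.59 ± 0.12 and thromboxane synthase, Tbxas1, at -0.38 ± 0.06; 2 were called higher without KO baseline replicate 1, KO baseline replicate 2 or WT baseline replicate 2. Of 18 clock genes 4 were called higher and 1 lower, with Cry1 at 0.85 and Nr1d1 at -0.57, both from baseline; 2 clock genes were called higher without KO ANG II replicate 1 or KO baseline replicate 2. Of 16 cholesterol synthesis genes 2 were called higher and 1 lower, with Idi1 at 0.69 from -0.41 at baseline and 1.79 under ANG II. Of 18 urine concentration genes 1 was called higher and 1 lower (Aqp1 at -0.22), of 21 distal salt and mineralocorticoid genes 0 and 2 (Scnn1a at -0.32; 1 lower after quantile normalization and 1 to 3 with 1 array left out), and of 26 oxidative phosphorylation genes 1 and 0 (Cycs at 0.42). The counts of these lists and of cholesterol synthesis lay near or below the shares of all genes, 11.7% higher and 10.9% lower.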
